A study of Mus musculus with 6 samples.

Results

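The genes described here are 10 genes of nitric oxide synthesis and arginine metabolism: Ddah1, Ddah2, Nos1, Nos2, Nos3, Gch1, Ass1, Asl, Arg1 and Arg2. They were measured among 22180 genes on 6 Affymetrix arrays of mouse MC3T3-E1 cells. The set was put together because Ddah1 and Nos2 were both lower with NU7441 in these data, so the differences of those 2 genes are given as a description, with no test. Each of the 10 genes had 1 probe set with a single gene symbol, and that probe set was used, so all 10 are accounted for.

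MC3T3-E1 is a line of pre-osteoblasts derived from mouse calvaria. The NU7441 group (3 samples) was grown to confluence and then kept for 14 days in osteogenic medium, which held ascorbic acid at 50 µg/ml and β-glycerophosphate at 10 mM. To it 1 µM NU7441 was added, a small molecule that inhibits DNA-dependent protein kinase. The DMSO group (3 samples) was handled alike and received the solvent alone, so both groups are differentiating cultures of a single cell line and neither is an undifferentiated one. The labels do not say whether the samples of a group came from separate cultures, so the p-values cover the spread of these samples alone, which may be a technical one, and precision is limited by having 3 arrays a group.

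Nitric oxide is made from arginine by the nitric oxide synthases, which release citrulline as the other product and need the cofactor tetrahydrobiopterin. Asymmetric dimethylarginine, a methylated arginine shed when methylated proteins are broken down, blocks the synthases. It is cleared chiefly by dimethylarginine dimethylaminohydrolase. Arginases draw on the same arginine and turn it into ornithine and urea, while a pair of urea cycle enzymes rebuild arginine from citrulline. In bone, nitric oxide from osteoblasts and osteocytes is known as a messenger of mechanical loading and of inflammatory cytokines.

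The sequences just upstream of Ddah1 and Ddah2 are shown because the 2 genes are paralogs and Ddah1, but not Ddah2, had groups that did not overlap. They are the 250 bases before each gene's start, 5′ to 3′, from RefSeq (build GRCm38.p6), with matches to the searched motifs in capitals.
Ddah1, chr3:145758442-145758691, plus strand: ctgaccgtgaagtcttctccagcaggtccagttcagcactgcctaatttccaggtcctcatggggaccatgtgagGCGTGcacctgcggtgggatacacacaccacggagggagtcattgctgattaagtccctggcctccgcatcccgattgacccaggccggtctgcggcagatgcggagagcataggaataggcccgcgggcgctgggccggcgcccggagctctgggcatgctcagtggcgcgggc
Ddah2, chr17:35058785-35059034, plus strand: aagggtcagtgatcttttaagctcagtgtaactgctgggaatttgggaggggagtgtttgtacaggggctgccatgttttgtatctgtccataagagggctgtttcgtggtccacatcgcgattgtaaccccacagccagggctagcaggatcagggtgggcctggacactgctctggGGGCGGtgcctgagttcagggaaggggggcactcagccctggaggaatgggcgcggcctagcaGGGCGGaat

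Motifs were searched on both strands. The letters were GGGCGG for the GC-rich box of Sp factors and TATAAA for the classic promoter box. Hypoxia response cores were read as ACGTG and as GCGTG, and binding sites of AP-1 as TGANTCA. The Ddah1 window held 1 GCGTG, which 28.2% of 32851 windows of this length hold, and no match to the other motifs. The Ddah2 window held 2 matches to GGGCGG, which was found in 32.7% of all windows, and no match to the others. The GC content was 64% for Ddah1 and 58% for Ddah2. RefSeq's table had an upstream window for 5 of the 10 genes, the others being Nos1, Ass1 and Gch1. The Nos1 window held no match. Whether the start that RefSeq gives for each gene, Nos1 among them, is the start used in these cells was not tested. In the Gch1 window, GGGCGG was found 2 times and TATAAA (12.4% of all windows) 1 time. The Ass1 window held 1 GGGCGG, 2 ACGTG matches that overlap as the same site read on both strands (16.6% of all windows), and 2 GCGTG matches. A match describes the letters only.

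The arrays were alike in scale, with medians between 6.38 and 6.42 and lower quartiles between 5.11 and 5.16 on the log2 scale. How far the authors' processing set this is not known. Correlations between arrays over all probe sets were between 0.989 and 0.993. Of the osteoblast markers 9 of 10 were measured, and Col1a1, the main collagen of bone, lay above 99.9% of probe sets on every array, with the bone transcription factor Sp7 above at least 90.3%. Prkdc, which encodes the inhibited kinase, was at 8.48, 8.41 and 8.43 in NU7441 and 8.47, 8.35 and 8.37 in DMSO. Limma called 0 of the 22180 genes, 0% at an adjusted p under 0.05, and 6.79% had an unadjusted p under 0.05. In 12.8% of genes the 3 values of a group lay apart from those of the other, 6.64% with NU7441 lower and 6.13% with NU7441 higher. In bulk RNA such as this, fewer cells of a type and less RNA per cell cannot be told apart.

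Ddah1 encodes the enzyme that hydrolyses asymmetric dimethylarginine, a natural inhibitor of the nitric oxide synthases. Its log2 values were 9.66, 9.50 and 9.56 in NU7441 1 to 3, against 10.17, 10.20 and 10.01 in DMSO 1 to 3. The highest NU7441 value was below the lowest DMSO value. The mean was 9.57 ± 0.08 in NU7441 and 10.13 ± 0.10 in DMSO (SD, n = 3 each), a log2 difference of -0.55 (SE 0.08), which is 0.681 of the DMSO signal on the linear scale. Between same-numbered arrays the difference was -0.51, -0.71 and -0.45. Leaving out any 1 array kept it between -0.61 and -0.52. A difference at least as large in size was found in 0.419% of all genes. That share is no test, since the Ddah1 difference helped choose the set.

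Ddah2, the paralog, whose own activity on dimethylarginine is debated, showed no such separation. It was at 9.16, 9.25 and 9.04 in NU7441 and at 9.21, 9.32 and 9.12 in DMSO. The groups overlapped, and the difference was -0.07 (SE 0.08), with a 95% interval from -0.26 to 0.13. Its values followed the replicate number, with number 2 highest and number 3 lowest in both groups, and the differences between same-numbered arrays were -0.04, -0.07 and -0.08. The Ddah2 difference was -0.11 without NU7441 2 and -0.010 without NU7441 3, the ends of its range when 1 array was left out. Both genes were bright on the arrays, Ddah1 above 86.9% to 92.0% of probe sets and Ddah2 above 82.8% to 84.8%.

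**Figure D1:**
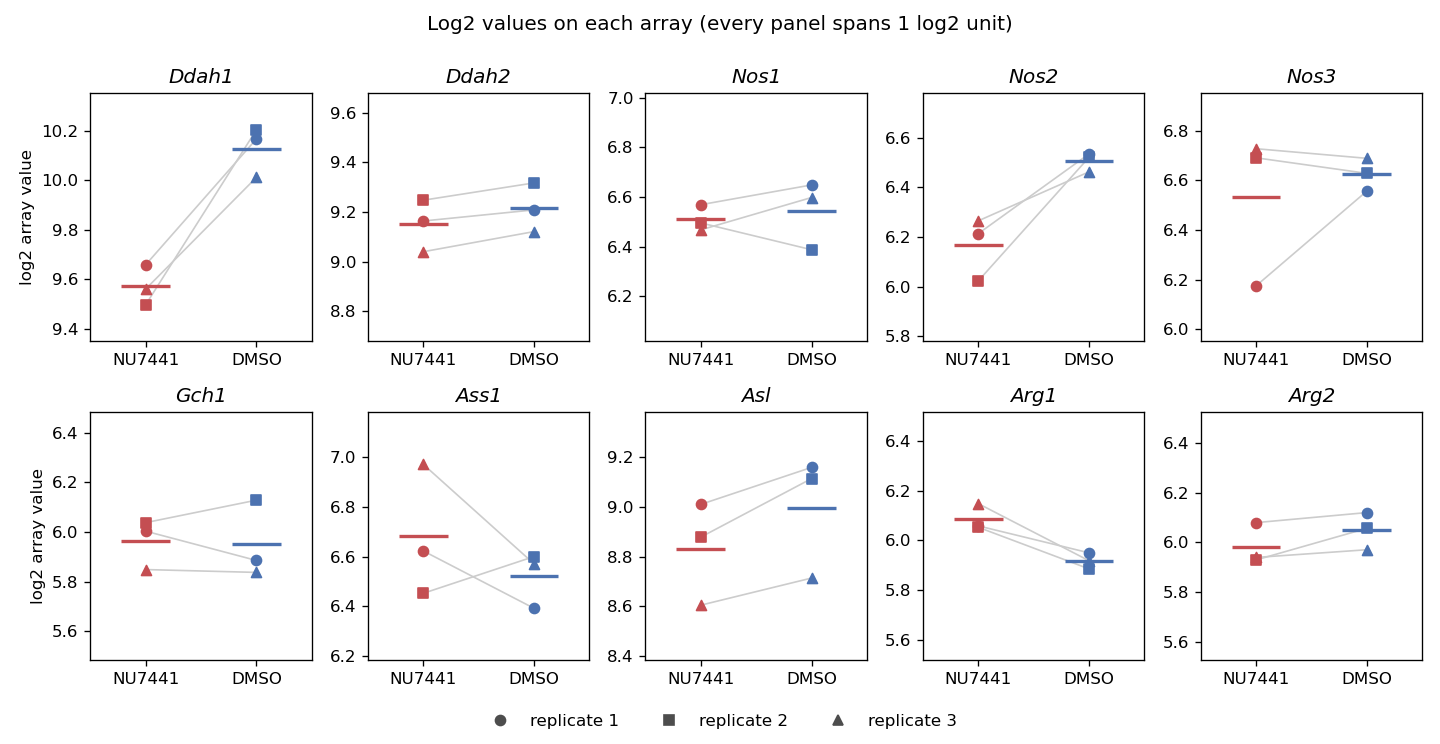
Log2 array values of the 10 genes, 1 panel each, with NU7441 at left and DMSO at right. Points are arrays, shaped by replicate number, bars are group means, and grey lines join arrays of the same number. Groups lie apart for Ddah1, Nos2 and Arg1 and overlap in the other 7 panels.

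Nos2 encodes the inducible synthase, which cytokines switch on in macrophages and many other cells. It was at 6.21, 6.02 and 6.27 in NU7441, against 6.53, 6.52 and 6.46 in DMSO. The groups did not overlap, and the DMSO arrays lay closer together than the NU7441 arrays. The mean was 6.17 ± 0.13 in NU7441 and 6.51 ± 0.04 in DMSO (SD, n = 3 each), a difference of -0.34 (SE 0.08) or 0.791 of the DMSO signal. The same-numbered differences were -0.32, -0.50 and -0.20, so NU7441 2, the lowest array, contributed most. Without NU7441 2 the difference was -0.27. A difference of at least this size was found in 2.60% of genes, which again is no test, as Nos2 also chose the set.

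Markers of bone and fat cells were read beside Ddah1 and Nos2. All 9 measured osteoblast markers were higher in NU7441, 0 of them passing. Groups lay apart for 1 of the 9, Col1a1, where 12.8% of all genes had groups apart. The Col1a1 gap was narrow, with DMSO 3 at 13.495 and NU7441 3 at 13.505. Phex differed by 0.97 (SE 0.58), Pth1r by 0.81 (SE 0.36), Bglap, which encodes osteocalcin, by 0.64 (SE 0.33) and Alpl, the alkaline phosphatase of mineralizing cells, by 0.54 (SE 0.21). The summed signal of the 9 was between 14.89 and 15.18 (log2) in NU7441 and between 14.70 and 14.99 in DMSO, so the sums overlapped. Between same-numbered arrays, every measured marker but Postn was higher in NU7441 in all 3 pairs. Of all genes 32.7% kept 1 sign in this way. These differences were 0.75, 0.87 and 0.80 for Pth1r and 0.48, 0.61 and 0.55 for Alpl, while Postn was at -0.05 for number 3. The adipocyte marker Fabp4, a fatty acid binding protein, was at 4.57, 5.04 and 5.00 in NU7441, against 5.65, 6.23 and 5.72 in DMSO. Its groups lay apart, with a difference of -0.99 (SE 0.19) that did not pass (limma adjusted p = 0.598). Of the 5 adipocyte markers measured, 3 were higher and 2 lower, with summed signals between 7.92 and 8.17 in NU7441 and between 8.13 and 8.20 in DMSO. The part of either list in the differences of Ddah1 and Nos2 was not tested.

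The constitutive synthases did not share the separation. Nos1, the neuronal form, was at 6.57, 6.50 and 6.47 in NU7441 and 6.65, 6.39 and 6.60 in DMSO, a difference of -0.03 (SE 0.09, 95% interval -0.24 to 0.17). Its sign turned to 0.02 without DMSO 1. Nos3, the endothelial form, which osteoblasts also express, was at 6.17, 6.69 and 6.73 in NU7441 and 6.56, 6.63 and 6.69 in DMSO. NU7441 1 was the lowest of the 6 arrays, while NU7441 2 and 3 were as high as the DMSO arrays or higher. The Nos3 difference of -0.09 (SE 0.15, 95% interval -0.44 to 0.26) therefore rested on NU7441 1 and was 0.08 without it. Gch1 encodes GTP cyclohydrolase, which makes the first committed step to tetrahydrobiopterin. It was at 6.00, 6.04 and 5.85 in NU7441 and 5.89, 6.13 and 5.84 in DMSO, with a difference of 0.01 (SE 0.10, 95% interval -0.22 to 0.25) whose sign turned under 6 of 13 alternative settings.

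The signal of all 3 synthases was modest. Nos2 lay above 41.9% to 52.4% of probe sets on its arrays, Nos1 above 49.9% to 54.3% and Nos3 above 45.7% to 55.8%, and the cofactor gene Gch1 above 38.2% to 45.1%. Probe sets for genes of unrelated tissues stood in the same range, such as Ckm of skeletal muscle, above 41.9% to 49.4%, and Cdh5 of endothelium, above 43.5% to 51.1%. How far these signals stood above background was not analysed here, and a dim gene's difference may understate the change in its transcript. Macrophage and osteoclast markers, all 11 measured, had 3 higher and 8 lower with NU7441. Groups lay apart in 12.8% of all genes and for 0 of these 11 markers. Their summed signal was between 11.50 and 11.91 (log2) in NU7441 and between 11.85 and 12.11 in DMSO. Most of that sum was Ctsk, a protease of osteoclasts, at 11.54, 11.49 and 11.01 in NU7441 and 11.75, 11.66 and 11.48 in DMSO, a difference of -0.28 (SE 0.15). The median level of the list was between 6.14 and 6.39 in NU7441 and between 6.23 and 6.27 in DMSO, and the part of these markers in the Nos2 difference was not tested. The pan-leukocyte marker Ptprc was dim on every array, above 16.0% to 19.3% of probe sets, and differed by 0.01 (SE 0.09).

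Ass1 and Asl encode the enzymes that join citrulline to aspartate and then release arginine. Ass1 was at 6.62, 6.45 and 6.97 in NU7441 and 6.39, 6.60 and 6.57 in DMSO. NU7441 3 was the highest array and NU7441 2 lay among the DMSO arrays. The difference of 0.16 (SE 0.14, 95% interval -0.16 to 0.48) was 0.02 without NU7441 3. Asl was at 9.01, 8.88 and 8.60 in NU7441 and 9.16, 9.11 and 8.71 in DMSO. Arrays numbered 3 were the lowest in both groups, and within each number NU7441 was lower, the differences being -0.15, -0.24 and -0.11. The Asl difference of -0.16 had an SE of 0.15 without pairs and 0.06 with the replicate number as a block, and it did not pass in either fit (limma adjusted p = 0.862 without the block and 0.531 with it). It was -0.05 without NU7441 3 and -0.31 without DMSO 3. Asl was bright, above 78.4% to 83.8% of probe sets, and Ass1 lay nearer the middle, above 49.6% to 59.7%.

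Arg1 and Arg2 encode the cytosolic and the mitochondrial arginase. Arg1 was at 6.06, 6.05 and 6.15 in NU7441, against 5.95, 5.89 and 5.92 in DMSO. It was the only 1 of the 8 genes other than Ddah1 and Nos2 with groups that did not overlap, where 12.8% of all genes showed this. The mean was 6.09 ± 0.05 in NU7441 and 5.92 ± 0.03 in DMSO (SD, n = 3 each), a difference of 0.17 (SE 0.06, 95% interval 0.02 to 0.32), opposite in sign to Nos2. It did not pass the test over all genes (limma adjusted p = 0.715), and leaving out 1 array kept it between 0.14 and 0.19. Arg2 was at 6.08, 5.93 and 5.94 in NU7441 and 6.12, 6.06 and 5.97 in DMSO, and the groups overlapped, with a difference of -0.07 (SE 0.08, 95% interval -0.24 to 0.11). It ran from -0.11 without NU7441 1 to -0.03 without DMSO 1. Arg1 and Arg2 lay above 39.9% to 44.5% and 39.9% to 44.0% of probe sets, where Ttr, a liver gene, also stood at 41.3% to 46.5%.

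**Figure D2:**
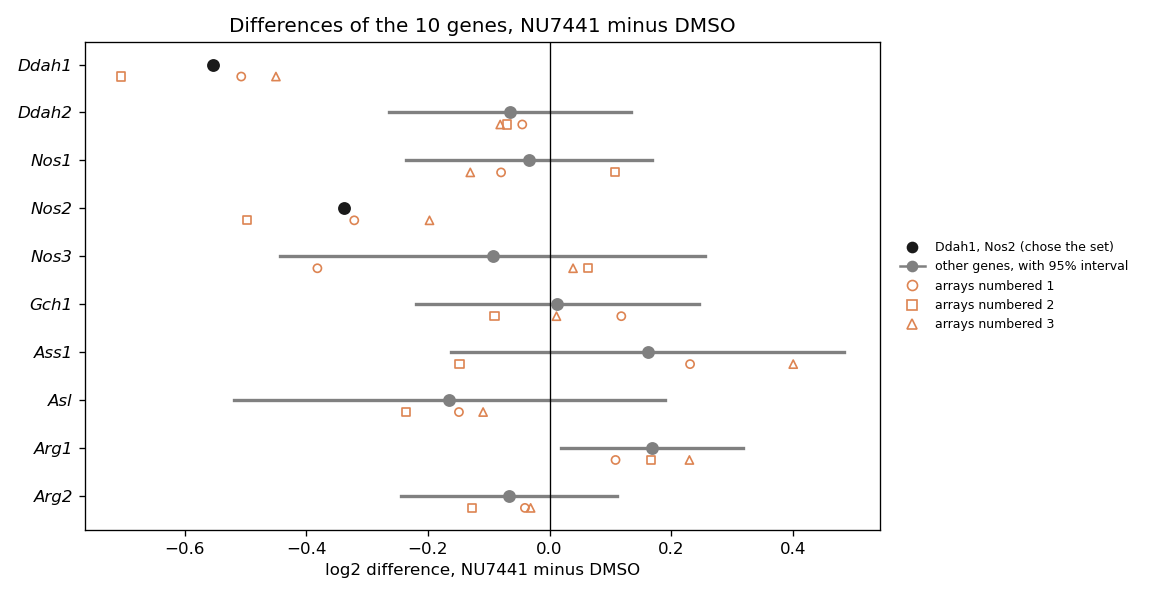
Log2 differences, NU7441 minus DMSO, of the 10 genes (x axis) with 95% intervals from limma for the 8 genes that did not choose the set. Open symbols are the differences between arrays of the same number, which had the same sign in all 3 for Ddah1, Ddah2, Nos2, Asl, Arg1 and Arg2.

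Of the 8 genes other than Ddah1 and Nos2, 0 passed in limma, and the smallest adjusted p was the 0.715 of Arg1. An unadjusted p under 0.05 was found for 1 of the 8, where 6.79% of all genes had one. With the replicate block, the unadjusted limma p was 0.044 for Arg1 and 0.048 for Asl. In that fit 2078 of all 22180 genes were under 0.05, and neither Arg1 nor Asl passed. With NU7441 3 were higher and 5 lower, with a median difference of -0.05, against 0.00 over all genes. The sign was the same in all 3 same-numbered differences for 4 of the 8, as it was for 32.7% of all genes. The 95% intervals of the 8 lay between -0.52 and 0.48, so a 2-fold change of array signal was outside each of them.

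Within the groups the genes varied in different ways. Asl, Ddah2 and Gch1 had their lowest value on array 3 of both groups. Osteoblast markers ran the other way on these arrays: the median of the list, each gene set against its own mean, was 0.67 in NU7441 3 and 0.16 in DMSO 3, against -0.02 and 0.10 in NU7441 1 and 2 and -0.46 and -0.43 in DMSO 1 and 2. Their part in the values of Asl, Ddah2 and Gch1 was not tested. Ddah2 and Gch1 had the most alike profiles of the 45 pairs of these 10 genes, with a root mean square distance of 0.06 between log2 values centred on each gene's mean over the 6 arrays. Ddah1 and Nos2 were 0.13 apart. Both had NU7441 2 as their lowest array and DMSO 3 as the lowest of the DMSO arrays.

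By the same measure, the genes nearest to Ddah1 over the 6 arrays were Pgm5 (0.05), Jun (0.06), Ccl9 (0.08), Scg2 (0.08) and Grem1 (0.09). Jun, one of the AP-1 transcription factors, was at 9.925, 9.694 and 9.749 in NU7441, against 10.297, 10.305 and 10.107 in DMSO, with the array order of Ddah1. Grem1 encodes a secreted antagonist of bone morphogenetic proteins and Ccl9 a chemokine. The nearest to Nos2 were Arrdc3 (0.03), Runx1 (0.04), Nlrp1b (0.04), Tanc2 (0.05) and Trhde (0.05). Runx1, a runt-family transcription factor, was at 9.19, 9.02 and 9.21 in NU7441, against 9.46, 9.39 and 9.37 in DMSO. These genes were picked out of 22180 by their likeness, which includes the difference between the groups, so their differences are no separate evidence.

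**Figure D3:**
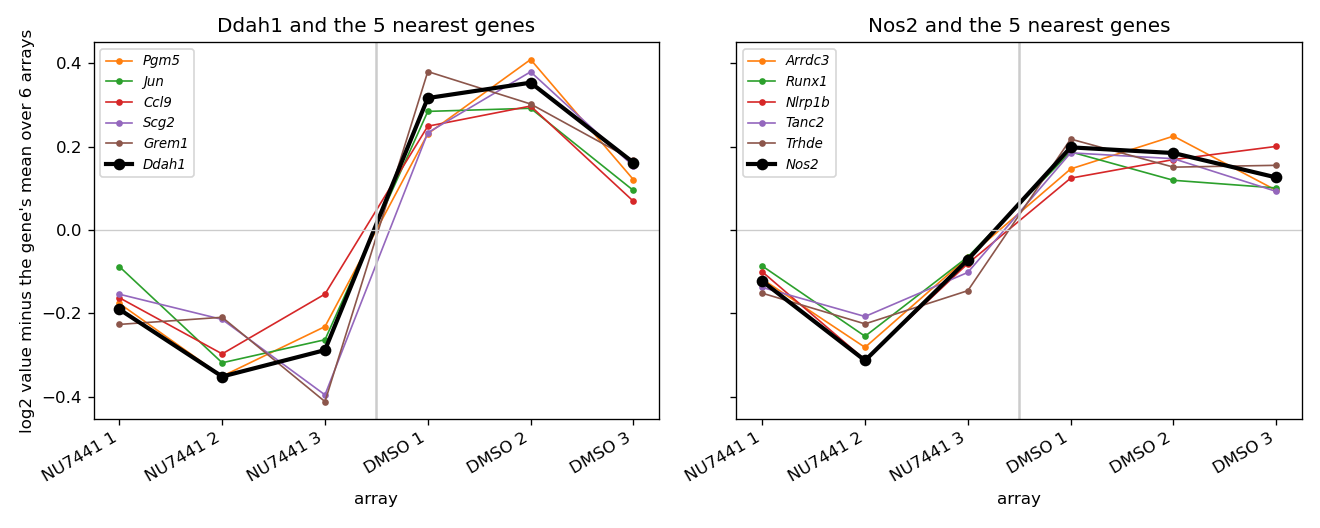
Log2 values on each array minus the gene's mean over 6 arrays, for Ddah1 (left) and Nos2 (right) in black and the 5 genes nearest to each in colour. The order along the x axis is NU7441 1 to 3, then DMSO 1 to 3. The lines lie below 0 on all NU7441 arrays and above 0 on all DMSO arrays.

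Around these 10 genes, 106 genes of 11 lists were considered, of which 92 were measured. Limma called 0 of the 92, and 5 had an unadjusted p under 0.05, where 6.79% of all genes did. Groups did not overlap for 12 of the 92, 8 lower and 4 higher with NU7441, where 12.8% of all genes behaved so, which is about the same share. In direction, 61 were lower and 31 higher with NU7441, with a median of -0.05, while 48.7% of all genes were lower, with a median of 0.00.

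Among genes that make or clear methylated arginines, 0 of 9 passed, with 2 higher and 7 lower and a median of -0.03. Prmt1, the main maker of asymmetric dimethylarginine, was at 8.07, 7.88 and 8.02 in NU7441 and 7.96, 8.35 and 8.10 in DMSO, a difference of -0.15 (SE 0.11), and Prmt6 differed by -0.15 (SE 0.10). Prmt5, which makes the symmetric form, differed by -0.10 (SE 0.09) and Agxt2, another enzyme that clears methylarginines, by 0.02 (SE 0.07). Groups overlapped for all 9 genes, where 12.8% of all genes had groups apart. Ddah1, whose groups were apart, had helped choose the set. Among tetrahydrobiopterin genes, 0 of 6 passed, with 1 higher and 5 lower and a median of -0.08. Gchfr, the feedback regulator of GTP cyclohydrolase, was at 7.73, 7.87 and 7.96 in NU7441, against 8.04, 7.98 and 8.04 in DMSO. Its groups lay apart by a small gap, at a difference of -0.16 (SE 0.08). The synthesis enzymes Pts and Spr differed by -0.09 (SE 0.11) and -0.03 (SE 0.09), the recycling enzymes Qdpr and Pcbd1 by -0.08 (SE 0.08) and -0.09 (SE 0.09).

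Partners of the synthases had 2 of 7 higher and 5 lower, 0 passing, with a median of -0.12. Cav1 encodes caveolin-1, which binds and restrains the endothelial synthase. It was at 9.32, 9.46 and 9.41 in NU7441, against 9.59, 9.91 and 9.64 in DMSO. Its groups lay apart, with a difference of -0.32 (SE 0.10, limma adjusted p = 0.698). Nosip, which interacts with the synthases, differed by -0.14 (SE 0.06), also with groups apart. Nostrin, which directs traffic of the endothelial synthase from the membrane, differed by -0.21 (SE 0.10).

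Of the nitric oxide receptor and cyclic GMP pathway, 0 of 15 passed, with 6 higher and 9 lower and a median of -0.05. The receptor is soluble guanylate cyclase, whose subunit genes Gucy1a1 and Gucy1b1 differed by 0.25 (SE 0.12) and -0.05 (SE 0.09). Gucy1a1 was dim, at 5.15, 5.25 and 5.15 in NU7441 and 5.02, 4.67 and 5.09 in DMSO, near the arrays' lower quartiles, and its groups lay apart by a narrow gap. Prkg1, a cyclic GMP-dependent kinase, was at 7.98, 7.78 and 7.51 in NU7441 and 8.24, 8.07 and 7.87 in DMSO. Within each number NU7441 was lower, the differences being -0.26, -0.29 and -0.36, but the groups overlapped and the difference was -0.30 (SE 0.14). Prkg2, the form known for its role in growth plate cartilage, differed by -0.37 (SE 0.18), with DMSO 3 at 7.29 the highest array. Pde5a, which breaks cyclic GMP down, differed by -0.20 (SE 0.14). Of the genes that remove nitric oxide or nitrosothiols, 7 of 7 were lower with a median of -0.08, and 0 passed. Adh5, the nitrosoglutathione reductase, was at 9.42, 9.42 and 9.35 in NU7441 and 9.70, 9.86 and 9.42 in DMSO, a difference of -0.26 (SE 0.11), with groups apart by a gap under the rounding shown, and Cygb differed by -0.09 (SE 0.11). The median of this list was -0.020 without DMSO 3.

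Inducers of Nos2, that is cytokines, their receptors and the factors they act through, had 8 higher and 8 lower of 16 measured, 0 passing, with a median of -0.01. The cytokine Il1b was very dim, at 4.78, 4.92 and 4.68 in NU7441 and 4.48, 4.34 and 4.64 in DMSO. Its groups lay apart, and its difference of 0.31 (SE 0.10) ran opposite to that of Nos2. Its receptor Il1r1 differed by -0.14 (SE 0.08) and the interferon factor Irf1 by -0.16 (SE 0.12). Hif1a, the oxygen-regulated factor, differed by -0.16 (SE 0.08). The Hif1a groups were apart by a very narrow gap, with NU7441 1 at 11.1738 and DMSO 3 at 11.1765. Groups did not overlap for 3 of the 16, where 12.8% of all genes did not overlap.

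**Figure D4:**
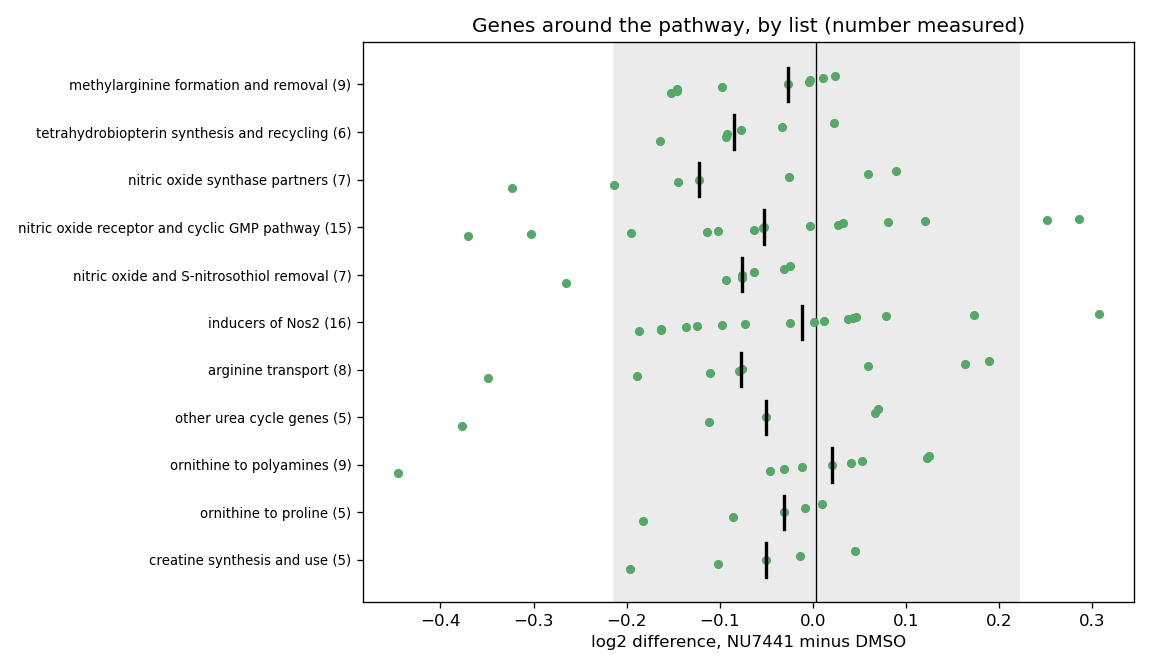
Log2 differences, NU7441 minus DMSO, of the 92 measured genes around the pathway (points), by list, with the number measured in brackets and each list's median as a black bar. The grey band runs from the 5th to the 95th percentile of all genes, -0.21 to 0.22, and holds most points. Sat1, at -0.45, is the lowest point.

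For the supply of arginine, 0 of 8 transporters passed, with 3 higher and 5 lower and a median of -0.08. Slc7a1, the main cationic amino acid transporter, was at 8.429, 8.679 and 8.923 in NU7441 and 8.339, 9.446 and 9.295 in DMSO. DMSO 1 was far below the other DMSO arrays, so the difference of -0.35 had an SE of 0.29. Slc7a2, the transporter that macrophages induce with Nos2, differed by -0.08 (SE 0.11) and Slc3a2, the heavy chain of several exchangers, by -0.19 (SE 0.15). Slc7a6 and the mitochondrial ornithine carrier Slc25a15 were higher without overlap, by 0.19 (SE 0.09) and 0.16 (SE 0.07), where 12.8% of all genes did not overlap. The Slc7a6 gap was very narrow, with NU7441 2 at 9.886 and DMSO 2 at 9.882. Other urea cycle and linked genes had 2 of 5 higher and 3 lower, 0 passing, with Cps1 at 0.07 (SE 0.07), Otc at -0.11 (SE 0.07) and Got1 at -0.38 (SE 0.13). Cps1 and Otc are liver genes and were dim, Cps1 above 36.3% to 40.3% and Otc above 16.6% to 19.9% of probe sets.

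Of the enzymes that use ornithine for polyamines, 0 of 9 passed, with 5 higher and 4 lower and a median of 0.02. The rate-limiting enzyme of synthesis, Odc1, differed by 0.02 (SE 0.10) and the spermidine synthase Srm by -0.05 (SE 0.10). Azin2, an antizyme inhibitor, differed by 0.12 (SE 0.07). Sat1 encodes the acetyltransferase that sends polyamines to breakdown and export. It was at 9.88, 9.94 and 9.47 in NU7441 and 10.34, 10.38 and 9.90 in DMSO. The groups overlapped, since number 3 was lowest in both, yet the same-numbered differences were -0.46, -0.44 and -0.43. The Sat1 difference was -0.45 (SE 0.17, limma adjusted p = 0.717). The limma adjusted p was 0.687 with an intensity trend and a robust prior, and 0.353 with the replicate block, where the SE was 0.06. With the block, an intensity trend and a robust prior Sat1 passed, with an adjusted p of 0.0117. Under that setting Sat1 was the only 1 of the 92 genes to pass, and of the 8 genes other than Ddah1 and Nos2 0 did. Proline genes had 1 of 5 higher and 4 lower, 0 passing, with Oat at -0.03 (SE 0.08), Aldh4a1 at -0.09 (SE 0.09) and Aldh18a1 at -0.18 (SE 0.16). Creatine genes had 1 of 5 higher and 4 lower, 0 passing, with the transporter Slc6a8 at -0.20 (SE 0.08) and the synthesis enzymes Gatm and Gamt at -0.10 (SE 0.08) and 0.05 (SE 0.11).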

How the data were processed

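Total RNA of whole cells was labelled with biotin and run on 6 Affymetrix arrays, 3 per group, and the labels gave the groups and replicate numbers. The authors deposited log2 values, 1 for each probe set on each array. Their unit was read from the values, and how the authors corrected background, summarised probes and normalized arrays is not given in the sources used here. Nothing more was done to normalize them, and the table held 0 columns from other samples.

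Of 41345 probe sets, the platform annotation gave 1 symbol to 23521, several to 1814 and none here to 16010. For each gene the single-symbol probe set of highest mean was kept, which left 22180 genes, with no filter on level. The Entrez number of 23328 single-symbol probe sets was found in the RefSeq gene table (GRCm38.p6) and 0 symbols changed. Listed genes with no single-symbol probe set, such as Nfkb1 and Pycr1, were not analysed here. A gene's position among probe sets is the percentage of the array's probe sets at or below its value.

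Differences are NU7441 minus DMSO from limma 3.58.1 (R 4.3.3), fitted with lmFit and eBayes on the group alone, two-sided, with moderated standard errors, 95% intervals and Benjamini-Hochberg adjustment over all genes at 0.05. The script was tested on simulated data. The genes, the lists and the alternatives were chosen with earlier results of these data known. Named from each list were genes fixed by name and the 2 with the smallest p. Likeness is the root mean square distance between centred log2 values, with predicted genes passed over. Plots were made in Python 3.11.15 with matplotlib 3.10.9.

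Both groups carry numbers 1 to 3. Deviations from group means, taken over genes, correlated at 0.149, 0.169 and 0.339 between same-numbered arrays and at -0.25 to 0.09 between others. Each same-numbered pair was over 0.1, so the numbers were read as a possible pairing, which comes from the data and not from the labels. The highest value between others was close to that cut, and the main fit did not use the pairing. The replicate block was an alternative. The others were quantile normalization, median centring, an intensity trend with a robust prior (with and without the block), the mean of probe sets, the brightest 75 percent of genes, and leaving out each array.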

Additional observations from a re-analysis of the deposited data

How the results depend on the processing

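The replicate block, the intensity trend and the robust prior cannot change a difference. The mean of probe sets and the brightness filter cannot change it for these genes, each with 1 probe set. Leaving out 1 array cannot turn the sign where groups do not overlap, as for Ddah1, Nos2 and Arg1. Within these limits, the difference kept its sign under all 13 alternatives for Ddah1, Ddah2, Nos2, Arg1, Arg2, Ass1 and Asl. It turned for Nos1 without DMSO 1 (0.018), for Nos3 without NU7441 1 (0.085), and for Gch1 with quantile normalization (-0.0088), with median centring (-0.0043) and when 1 array was left out, which gave Gch1 values between -0.044 and 0.10. Over the same 6 settings Nos1 ran from -0.11 to 0.018 and Nos3 from -0.19 to 0.085. Limma called 0 genes in 12 of the 13 alternatives and 100 with the replicate block, an intensity trend and a robust prior combined, where 2483 genes had an unadjusted p under 0.05, against 1506 without these. The replicate block alone called 0 genes, with a smallest adjusted p of 0.229 and 2078 genes at an unadjusted p under 0.05, and changed no call for the 8 genes other than Ddah1 and Nos2. The list medians moved by less than their spread over arrays, with these exceptions. Other urea cycle genes were at 0.0079 among the brightest 75 percent of genes. With 1 array left out, the median ran from -0.15 to -0.066 for synthase partners, from -0.088 to 0.0075 for the cyclic GMP pathway, from -0.086 to -0.025 for other urea cycle genes and from -0.031 to 0.040 for polyamine genes. It ran from -0.10 to -0.020 for nitric oxide removal, -0.12 to -0.011 for methylarginines, -0.12 to -0.021 for tetrahydrobiopterin, -0.11 to -0.022 for arginine transport, -0.100 to -0.021 for proline, -0.088 to -0.041 for creatine and -0.045 to 0.011 for inducers of Nos2, moves within the spread over arrays. Where leaving out 1 array moved a value, the cause was not tested. How far the dim genes, the synthases, arginases and Gch1 among them, stood above background was not analysed here.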
